A study of Mus musculus with 6 samples.

Results

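Inpp5f and 7 related phosphoinositide phosphatase genes (Inpp5a, Inpp5b, Inpp5d, Inpp5e, Inpp5k, Fig4 and Sacm1l) were examined in the heart ventricle of western diet (WD) fed mice with and without tributyrin. These 8 genes were taken by symbol from the 54232 gene identifiers in each library, and all 8 passed the filter on low counts that left 14133 genes for testing. Inpp5f was selected on the contrast described here, being among the genes the study reported for these same mice, and its relatives were chosen by family with results of these data known. Its difference between the groups is therefore given as a description and supports nothing.

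All mice were wild-type (WT) C57BL/6J animals on WD for 15 weeks. At the end of that time 3 mice (WD + Tributyrin) were needle-fed tributyrin, a glycerol ester that releases the short-chain fatty acid butyrate, at 5 g/kg body weight, 2 days on and 2 days off, for 3 weeks. The control group (WD + Vehicle, 3 mice) received vehicle, which the labels call PBS. No ventricle from a mouse on normal chow was analysed here, so the values describe tributyrin on a western diet and not the diet itself. The study used mice of both sexes, and the labels give neither sex nor age for these libraries. All 6 libraries had 0 to 6 counts of Xist and 1571 to 2559 counts of the Y-linked Ddx3y, the pattern of male mice.

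Each library held between 20369746 and 32734485 counts, of which 23.6% to 28.8% were mitochondrial. Levels are CPM, the reads of a gene per 1e6 reads of its library after TMM scaling. Summed over 8 ventricular cardiomyocyte markers, the libraries gave 46370 to 49440 CPM, against 30.5 to 175 CPM over 5 atrial markers. The atrial sum was 53.7 to 175 CPM in WD + Vehicle and 30.5 to 62.9 CPM in WD + Tributyrin. At a false discovery rate (FDR) of 10% the quasi-likelihood test of edgeR called 0 genes (0%), while 600 genes (4.25%) had an unadjusted p under 0.05, 278 (1.97%) higher and 322 (2.28%) lower with tributyrin. That count of 600 rested on single mice: it was 1360 of 14225 genes without the second tributyrin mouse, 400 of 14208 without the second vehicle mouse and 389 of 14496 without the third vehicle mouse. DESeq2 called 11 genes and limma-voom 0 at that FDR. The 3 values of one group lay entirely above or below those of the other for 1264 genes (8.94%), and for 651 (4.61%) tributyrin was the lower group.

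Phosphoinositides are membrane lipids whose inositol ring is phosphorylated at different positions, and each pattern of phosphates recruits its own set of proteins to a membrane. Kinases add the phosphates and phosphatases remove them, so that the balance between the enzymes sets signalling through AKT, endocytosis, endosome identity and ion channel activity. The 8 genes fall into 2 enzyme families. The inositol polyphosphate 5-phosphatases, here Inpp5a, Inpp5b, Inpp5d, Inpp5e and Inpp5k, remove the phosphate at the D5 position. The Sac domain phosphatases, here Inpp5f, Fig4 and Sacm1l, share a different catalytic domain. Despite its name the product of Inpp5f, also called Sac2, belongs to the Sac family and acts mainly on the phosphate at the D4 position. In mouse heart the Inpp5f protein is known to restrain hypertrophic growth through AKT and GSK3B, and Inpp5f is known as a target of repression by the class I histone deacetylase HDAC2. Butyrate is an inhibitor of class I histone deacetylases.

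The assignment to families can be read in the coding sequence. The Sac active site motif Cys-X-Asp-Cys-X-Asp-Arg-Thr (X, any residue) was searched in the translated longest coding sequence of each of 21760 protein-coding genes of GENCODE M21 and was found in 5 (0.023%), among them Inpp5f, Fig4 and Sacm1l. Below are the bases around it in the M21 transcripts of these 3 genes, 5′ to 3′, with the codons of the motif in capitals. They show that Inpp5f carries the Sac site.
Inpp5f: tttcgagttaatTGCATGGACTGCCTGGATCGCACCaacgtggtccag
Fig4: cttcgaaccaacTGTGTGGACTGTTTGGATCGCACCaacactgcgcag
Sacm1l: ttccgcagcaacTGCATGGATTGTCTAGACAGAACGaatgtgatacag
Of these 48 bases, 34 were identical between Inpp5f and Fig4, 32 between Inpp5f and Sacm1l, and 28 between Fig4 and Sacm1l. On GRCm38 the Inpp5f stretch lies at chr7:128678037-128678084 on the plus strand in exon 12 of 20. The Fig4 stretch lies at chr10:41253732-41253779 on the minus strand in exon 14 of 23, and the Sacm1l stretch at chr9:123582300-123582347 on the plus strand in exon 14 of 20.

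The pattern of the 5-phosphatase active site motif, Gly-Asp-X-Asn-X-Arg, was matched in 59 of the 21760 genes (0.271%) and in all 5 of the members of that family. It is short, so a match alone does not show that a gene carries a 5-phosphatase site. The motif had 0 matches in Inpp5f, Fig4 and Sacm1l. It is shown for the 5 genes in the same way, with its codons in capitals, because it is the site that Inpp5f lacks.
Inpp5a: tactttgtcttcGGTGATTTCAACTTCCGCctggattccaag
Inpp5b: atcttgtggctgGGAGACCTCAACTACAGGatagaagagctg
Inpp5d: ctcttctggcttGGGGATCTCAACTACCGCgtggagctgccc
Inpp5e: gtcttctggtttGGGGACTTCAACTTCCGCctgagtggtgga
Inpp5k: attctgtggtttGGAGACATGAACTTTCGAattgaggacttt
Identity over these 42 bases ran from 19 (Inpp5a and Inpp5k) to 28 (Inpp5b and Inpp5d). The stretches lie at chr7:139538210-139538251 (Inpp5a, plus strand, exon 9 of 16), chr4:124786522-124786563 (Inpp5b, plus, exon 14 of 24), chr1:87699731-87699772 (Inpp5d, plus, exon 15 of 26), chr2:26399507-26399548 (Inpp5e, minus, exon 7 of 10) and chr11:75638149-75638190 (Inpp5k, plus, exon 6 of 12). Synj1, a synaptojanin that is not among the 8 genes, held 1 match to each motif.

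Inpp5f (ENSMUSG00000042105) spans chr7:128611328-128696425 on the plus strand, with 8323 exonic bases and 9 annotated transcripts, 3 of them coding. The full-length coding transcript starts 32 bases into the gene. The other 2 coding transcripts start at bases 128687546 and 128688489, 76218 and 77161 bases into the gene and past the exon with the Sac motif. The deposited counts are sums per gene and do not separate these transcripts. A short transcript from within Inpp5f is known to be imprinted in brain. Inside the gene lie 2 processed pseudogenes on the same strand, Gm43580 (284 shared exonic bases) and Gm16044, both with 0 counts in every library. How reads in the shared bases were counted is not given in the sources used here, so reads of Inpp5f may be missing there.

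The WD + Vehicle mice had 269, 431 and 213 reads of Inpp5f and the WD + Tributyrin mice 199, 202 and 192. Scaled to library size these were 10.6, 12.7 and 10.1 CPM with vehicle and 7.08, 7.04 and 8.36 CPM with tributyrin. The groups did not overlap: the highest tributyrin mouse, the third, was below the lowest vehicle mouse, also the third, and the second vehicle mouse was the highest of all. Mean levels were 11.1 ± 1.38 CPM (SD, n = 3) with vehicle and 7.49 ± 0.747 CPM (SD, n = 3) with tributyrin, a difference of -32.7%. Its log2 fold change was -0.58 (standard error 0.129; 95% interval -0.866 to -0.294). Counting error alone gave an SD of up to 7.22% of a library's value. Among all genes tested, 499 (3.53%) had a log2 fold change at least as large in size. The adjusted p was 0.9988 in edgeR's quasi-likelihood test, so Inpp5f was not called at an FDR of 10%. It ranged from 0.008597 (no filter on low counts) to 0.9999 over 15 other ways of fitting and was 0.2358 in DESeq2. The log2 fold change stayed negative in all 15, and was weakest, at -0.47, without the second vehicle mouse. The study used DESeq2, version 1.14.1 in the submitters' notes, and reported Inpp5f among its genes altered at an FDR of 10%. The 0.2358 given here came from DESeq2 1.42.0, and the reason for the difference was not tested. In tissue RNA such as this, fewer cells that express the gene and less RNA per cell cannot be told apart.

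**Figure D1:**
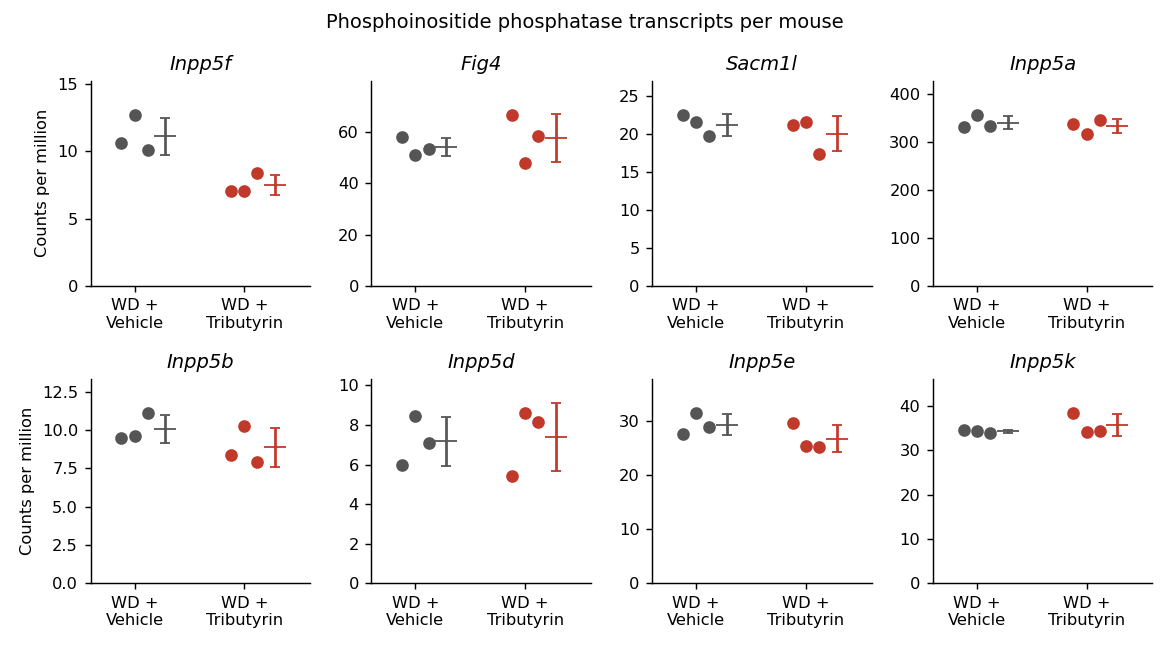
Normalised expression of the 8 phosphatase genes in CPM, with 1 point per mouse and, beside the points, the group mean and SD (n = 3); every vertical axis starts at 0. Inpp5f was at 10.1 to 12.7 CPM with vehicle and 7.04 to 8.36 CPM with tributyrin, whereas the groups of each of the 7 relatives overlap.

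For the other 2 Sac phosphatases the groups overlapped with all 6 mice included. Fig4 (chr10:41188172-41303260, minus strand) encodes the phosphatase that works with PIKFYVE and VAC14 on endosomal phosphoinositides. It was at 58.1, 51.1 and 53.3 CPM with vehicle and 66.6, 48.1 and 58.3 CPM with tributyrin, and both the highest and the lowest mouse were in the tributyrin group. Its log2 fold change was 0.09 (standard error 0.112; 95% interval -0.159 to 0.339). Without the first tributyrin mouse, the one with the highest level, it was -0.02. Without the second, the one with the lowest, it was 0.21. The groups then did not overlap, which follows from leaving out the only tributyrin mouse below the highest vehicle mouse. The unadjusted p of Fig4 in edgeR's quasi-likelihood test was then under 0.05, beside 1360 of 14225 genes in that fit.

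The partners of Fig4 lay close to 0 in the same contrast, with log2 fold changes of 0.02 (standard error 0.133) for Pikfyve, the kinase of the complex, and -0.02 (0.109) for its scaffold Vac14. Sacm1l (chr9:123529759-123592600, plus strand), the Sac1 phosphatase of the endoplasmic reticulum and Golgi, was at 22.5, 21.5 and 19.7 CPM with vehicle and 21.1, 21.6 and 17.4 CPM with tributyrin. In each group the third mouse was the lowest. Sacm1l had a log2 fold change of -0.08 (0.106; 95% interval -0.317 to 0.153), and 0.01 without the third tributyrin mouse. Of its 3738 exonic bases, 1800 are shared with Slc6a20b on the opposite strand, which had 0 to 1 reads. The strand setting of the counting is not given, so the level of Sacm1l and any ratio to it are uncertain. The intervals of these 2 Sac genes reach changes in either direction and do not show that their levels were equal.

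Of the 5-phosphatases, Inpp5a (chr7:139389109-139579652, plus strand), which acts on soluble inositol phosphates and so ends calcium release signals, had the most reads. There were 7074 to 12103 reads per library, or 331, 357 and 335 CPM with vehicle and 337, 318 and 346 CPM with tributyrin. The 2 groups overlapped, and the log2 fold change of -0.03 (standard error 0.0688; 95% interval -0.183 to 0.122) was the closest to 0 of the 8 and had the smallest standard error. It turned positive without the second mouse of either group, at most to 0.0036.

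Inpp5b (chr4:124741850-124801511, plus strand), a Golgi and endosomal enzyme related to the Lowe syndrome gene Ocrl, was at 9.49, 9.6 and 11.1 CPM with vehicle and 8.4, 10.3 and 7.92 CPM with tributyrin. In this gene the second tributyrin mouse lay among the vehicle mice and the first and the third lay below them. The log2 fold change was -0.18 (0.13; 95% interval -0.466 to 0.113), and -0.30 without that mouse. The groups then did not overlap, which follows from leaving out the only tributyrin mouse that lay among the vehicle mice.

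Inpp5d (chr1:87620312-87720507, plus strand) encodes SHIP1, a phosphatase mainly of blood cells that acts on the product of phosphoinositide 3-kinase. It was at 5.97, 8.45 and 7.1 CPM with vehicle and 5.41, 8.61 and 8.14 CPM with tributyrin. The first mouse was the lowest in each group, and the log2 fold change of 0.03 (0.19; 95% interval -0.389 to 0.456) was the least precise of the 8. Its sign changed in 5 of 15 other fits. Leukocyte markers summed to 92.6 to 108 CPM with vehicle and 79.6 to 111 CPM with tributyrin. Of 8 tested, 0 had an unadjusted p under 0.05, beside 4.25% of all genes. The T and B cell genes Cd3e and Cd79a were too low to be tested.

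Inpp5e (chr2:26396249-26409203, minus strand) encodes the 5-phosphatase of the primary cilium. It was at 27.6, 31.5 and 28.9 CPM with vehicle and 29.6, 25.4 and 25.2 CPM with tributyrin, where the first tributyrin mouse lay among the vehicle mice. For Inpp5e the log2 fold change was -0.14 (0.0935; 95% interval -0.343 to 0.0718). Its value is uncertain because 874 exonic bases are shared with Pmpca on the opposite strand, which had 2829 to 4514 reads. The study states a stranded library preparation, but the strand setting of the counting is not given in the sources used here.

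Inpp5k (chr11:75630988-75648871, plus strand), whose product SKIP is known to lower insulin signalling to AKT, was at 34.5, 34.3 and 33.9 CPM with vehicle. With tributyrin it was at 38.4, 34.2 and 34.2 CPM, so that 1 mouse stood above 5 that were nearly alike. The log2 fold change was 0.06 (0.077; 95% interval -0.114 to 0.228), and -0.02 when libraries were scaled by their totals alone, a scaling that moved the median of all genes to -0.07.

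Counted together, 1 of the 8 genes, Inpp5f, had an unadjusted p under 0.05 and groups that did not overlap, and 0 of the 7 relatives did. These counts stand beside 4.25% and 8.94% of all genes tested. For Inpp5f they restate how it was chosen, and 8 genes are too few for a share to be read. The relatives had a median log2 fold change of -0.03, 3 positive and 4 negative, against a median of -0.0013 over all genes. Their unadjusted p in edgeR's quasi-likelihood test ran from 0.1764 to 0.8622 and their adjusted p from 0.9988 to 0.9992.

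**Figure D2:**
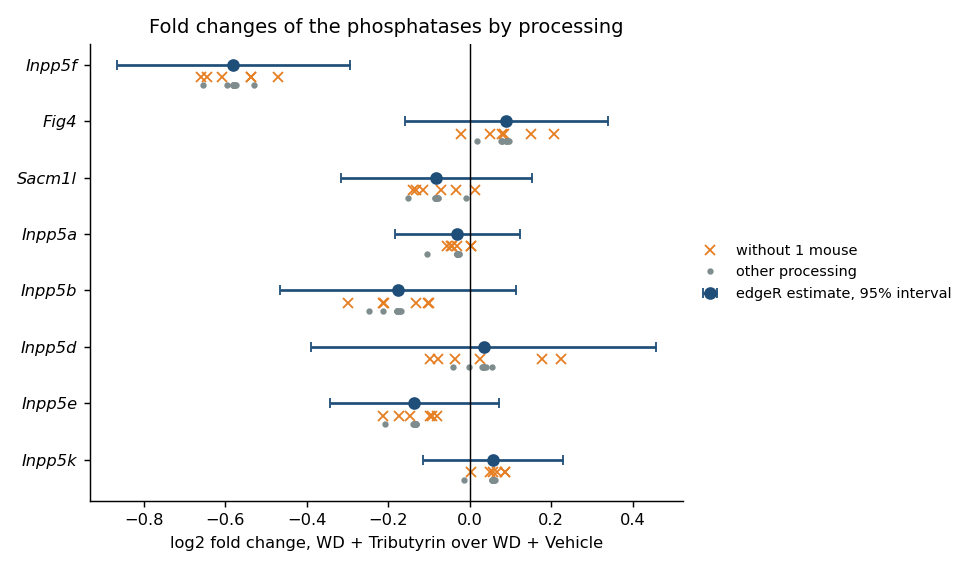
Log2 fold change of each phosphatase, WD + Tributyrin over WD + Vehicle (3 mice each), with its 95% interval (dark), the estimates without each single mouse (crosses) and those of the other processing settings (small points). Inpp5f stays between -0.66 and -0.47 throughout, while the intervals of the 7 relatives include 0.

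Levels can be compared between genes only per length, so CPM were divided by the kilobases of exonic sequence of each gene. Over the 6 mice Inpp5a was highest at 59.7 ± 2.33 CPM per kb (SD, n = 6), 3.5 times the level of Fig4 at 17 ± 2.01. Then came Inpp5e at 6.51 ± 0.578, Inpp5k at 6.1 ± 0.3 and Sacm1l at 5.52 ± 0.495 CPM per kb. Inpp5b followed at 2.03 ± 0.253, Inpp5f at 1.12 ± 0.268 and Inpp5d at 0.958 ± 0.178 CPM per kb. Inpp5f was thus seventh of the 8, with the lowest level of the 3 Sac genes in every mouse.

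Some neighbours in this order did not differ beyond their spread. Inpp5e exceeded Inpp5k in 4 of 6 mice and Inpp5f exceeded Inpp5d in 4 of 6. In both pairs the exceptions were the second and the third tributyrin mouse, so these orders held in every vehicle mouse. The ranges of Inpp5k and Sacm1l overlapped although Inpp5k was above in 6 of 6. The ranges of the other neighbouring pairs did not overlap, with Inpp5b 1.82 times Inpp5f. Per kb of the longest annotated transcript the level of Inpp5f was 1.97 CPM and its place did not change, but Inpp5k (10.3) and Inpp5e (6.76) exchanged places.

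**Figure D3:**
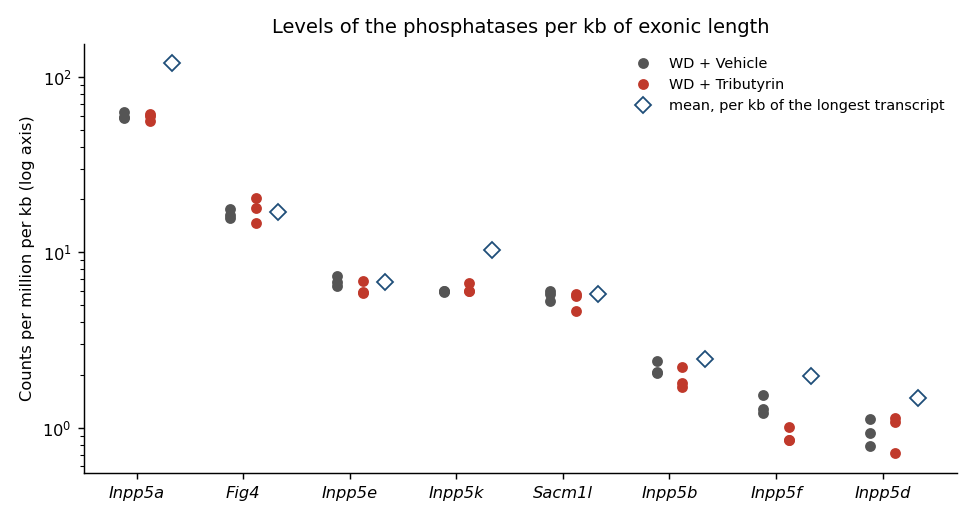
Level of each phosphatase in CPM per kb of exonic length on a log axis, with 1 point per mouse (WD + Vehicle grey, WD + Tributyrin red) and, as an open diamond, the mean of 6 mice per kb of the longest transcript. Inpp5a is highest at 56.3 to 63.1, and Inpp5f at 0.846 to 1.53 lies beside Inpp5d at the low end.

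Inpp5f was also counted within each library against its relatives, a ratio that needs no scaling between libraries. Per 1000 reads of Inpp5a there were 32.1, 35.6 and 30.1 reads of Inpp5f with vehicle and 21, 22.2 and 24.2 with tributyrin. Against Sacm1l there were 473, 590 and 512 with vehicle and 335, 325 and 481 with tributyrin, so that here the third tributyrin mouse reached above the lowest vehicle mouse. Relative to the geometric mean of the 7 relatives the ratio was 351, 397 and 326 per 1000 with vehicle and 232, 230 and 283 with tributyrin, and the groups did not overlap. The mean log2 ratio differed by -0.53 (group SDs 0.144 with vehicle and 0.17 with tributyrin, n = 3 each). Over the single relatives that difference ran from -0.65 (Fig4) to -0.38 (Inpp5b), and the groups overlapped for Inpp5b and Sacm1l. All of these ratios hold the same Inpp5f reads, so they are not independent of one another or of the choice of the gene.

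Several features of the libraries moved with the groups, and their values are given here without a verdict on the Inpp5f difference. The atrial genes Myl7, Myl4 and Sln had unadjusted p under 0.05, with log2 fold changes of -1.94, -1.86 and -2.24, while Bmp10 was at or near 0 throughout. Nppa, the other gene of that list, was at 21.1, 18.4 and 39.8 CPM with vehicle and 11.2, 15.9 and 27.7 CPM with tributyrin (log2 fold change -0.53, standard error 0.333), and was highest in the third vehicle mouse. The mean log2 CPM of Myl7, Myl4 and Sln was 5.31, 5.01 and 1.22 in the vehicle mice and 2.36, 3.25 and 1.96 in the tributyrin mice. The third vehicle mouse, with 10.1 CPM of Inpp5f, had the lowest score of the 6 over these 3 genes, but its sum over all 5 atrial markers, 53.7 CPM, was within the range of the tributyrin mice. With this score in the model, an alternative added after the data were seen, the log2 fold change of Inpp5f was -0.53 (standard error 0.154). Of 8 ventricular cardiomyocyte markers 2 were higher at an unadjusted p under 0.05 (Tnnt2, 0.23, and Tnni3, 0.21, the latter with groups that did not overlap), and their sum was 46460 to 48420 CPM with vehicle and 46370 to 49440 CPM with tributyrin. Among 6 fibroblast markers, 2 were lower at an unadjusted p under 0.05 (Col1a1, -0.46, and Lum, -0.31). For Lum the groups did not overlap. The fibroblast markers summed to 743 to 799 CPM with vehicle and 670 to 808 CPM with tributyrin. Of 6 mural cell markers 2 were higher at an unadjusted p under 0.05 (Myh11, 0.59, and Cnn1, 0.71). For Myh11 the groups did not overlap. Pdgfrb was the 1 mural marker with a negative log2 fold change (-0.19). The mural markers summed to 684 to 739 CPM with vehicle and 705 to 843 CPM with tributyrin. Endothelial markers had 0 of 6 (608 to 624 against 592 to 651 CPM). All of these marker counts, the atrial ones included, stand beside 4.25% of all genes tested. Groups that did not overlap stand beside 8.94%. Mitochondrial reads were 23.6% to 26.5% of a library with vehicle and 25.9% to 28.8% with tributyrin, and with them left out the log2 fold change of Inpp5f was -0.57. A score of 3 genes over 6 mice cannot apportion the difference, and leaving out mitochondrial reads acts mainly by changing the scaling. The part of the atrial, ventricular, fibroblast, mural cell and mitochondrial differences in the Inpp5f result was not tested.

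**Figure D4:**
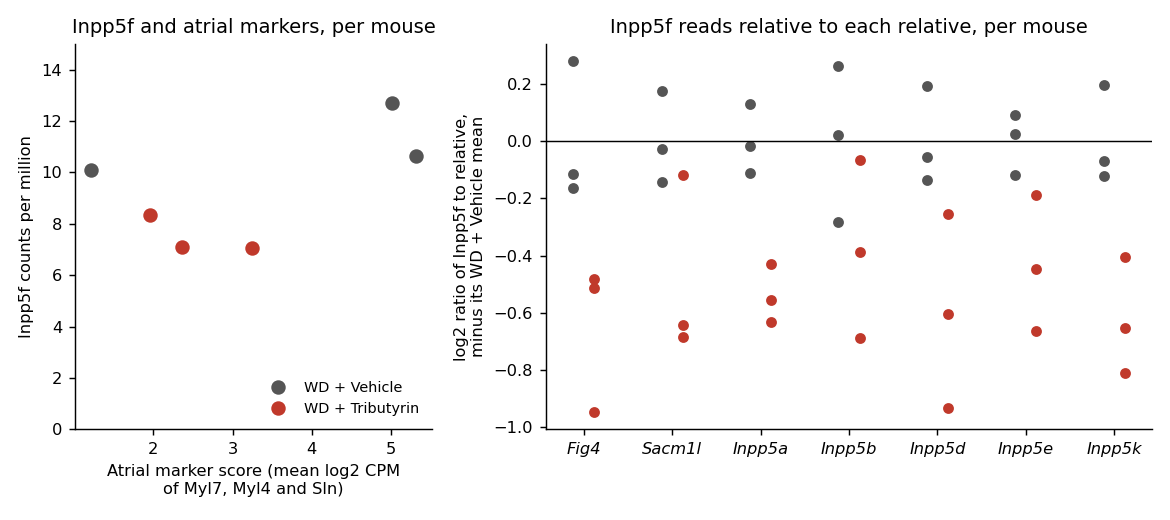
Left, Inpp5f in CPM against the atrial marker score (mean log2 CPM of 3 genes), 1 point per mouse: scores run from 1.22 to 5.31 with vehicle and from 1.96 to 3.25 with tributyrin. Right, log2 ratio of Inpp5f reads to the reads of each relative, as the difference from the WD + Vehicle mean of that ratio; the groups overlap for Inpp5b and Sacm1l.

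The genes beside Inpp5f on chromosome 7 did not share its difference. Mcmbp, a partner of the replication helicase, ends 16 bases from it on the opposite strand and had a log2 fold change of -0.03 (standard error 0.0773), with 28.5, 29.3 and 31.2 CPM with vehicle and 28.4, 30.2 and 28.5 CPM with tributyrin. Bag3, a co-chaperone of the sarcomere 64.4 kb on the other side, had -0.03 (0.0789). The remaining neighbours were Tial1 (0.10), Rgs10 (0.05), Sec23ip (0.13) and Wdr11 (-0.05). None of the 6 had an unadjusted p under 0.05 in edgeR's quasi-likelihood test, beside 4.25% of all genes. Tributyrin was nevertheless the higher group without overlap for Tial1 and Sec23ip, beside 8.94% of all genes without overlap in either direction.

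Among 9698 other genes with a mean of at least 5 CPM, those whose log2 CPM followed Inpp5f most closely over the 6 mice were Mpp1 (Pearson r = 0.981), Med17 (0.976), Loxl2 (0.967), Snx33 (0.964) and Adamtsl5 (0.963). Spearman's rho for these genes was between 0.829 and 0.943. They are the extreme of many genes over 6 points that share their libraries and depths. Each of the 5 had groups that did not overlap, beside 8.94% of all genes tested. They were picked for likeness to Inpp5f, whose groups did not overlap, so this separation is not a result of its own. Loxl2, a lysyl oxidase that crosslinks collagen, was at 11.9, 15.5 and 12.7 CPM with vehicle and 8.9, 9 and 9.31 CPM with tributyrin. Like Inpp5f, Loxl2 and the matrix gene Adamtsl5 are among the genes the study reported for this contrast.

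The wider pathway was described with 80 further genes of phosphoinositide and inositol phosphate metabolism, of which 77 could be tested (Pik3c2g, Plcd4 and Itpka were too low). The quasi-likelihood test of edgeR called 0 of these at the 10% FDR, and 1 (1.3%) had an unadjusted p under 0.05, beside 4.25% of all genes. That gene was Plce1, the phospholipase C epsilon that cleaves phosphoinositides downstream of RAS family proteins. It was at 50.9, 45.7 and 46.7 CPM with vehicle and 41, 43.3 and 39.2 CPM with tributyrin, a log2 fold change of -0.21 (standard error 0.0771). The groups did not overlap, but without the third tributyrin mouse 0 of the pathway genes had an unadjusted p under 0.05. Plce1 was also above that threshold without the first tributyrin mouse, without the first vehicle mouse and with the atrial score in the model, where the 1 gene under it was Pik3r1, Impa2 and Itpkb in turn. Log2 fold changes of the 77 genes ran from -0.30 (Mtmr7, 12 reads in its lowest library) to 0.31 (Pi4k2b, 26 reads), with a median of -0.02, 28 positive and 49 negative.

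Groups did not overlap for 5 of the 77 genes, beside 8.94% of all genes. With Plce1, tributyrin was the lower group for Synj1 (-0.16), which carries both the Sac and the 5-phosphatase motif, for the kinase gene Pip5k1c (-0.13) and for the transfer protein gene Pitpnm2 (-0.14), and the higher group for the PI 4-kinase gene Pi4kb (0.10). Of the other 5-phosphatases Inppl1 (SHIP2) was the highest in level at 36 CPM per kb and had a log2 fold change of 0.03 (standard error 0.0653).

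The most abundant genes of the remaining groups were Mtmr3 (11.6 CPM per kb; log2 fold change -0.09) of the myotubularins, Pip4p2 (10.2; -0.06) of the 4-phosphatases and Pik3r1 (22.2; 0.07) of the PI 3-kinase genes. For the lipid kinases and phospholipases they were Pi4ka (5.69; -0.04), Pip4k2c (8.98; 0.04) and Plcg1 (7.82; -0.11). Cds2 (25.4; 0.0030), which makes the precursor of phosphatidylinositol, and the inositol phosphate kinase gene Itpkb (9.71; -0.17) led the last groups. No unadjusted p among these was under 0.05 in edgeR's quasi-likelihood test.

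**Figure D5:**
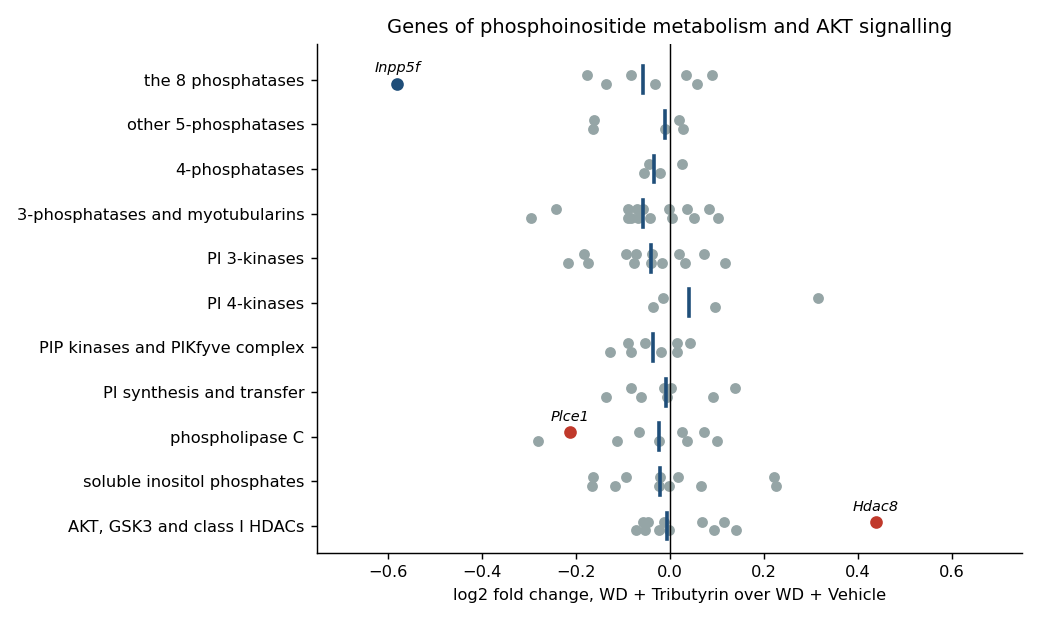
Log2 fold change of each tested gene by group, 1 point per gene, with the median of each group as a vertical bar; red points had an unadjusted p under 0.05, and Inpp5f, chosen on this contrast, is dark blue. Inpp5f at -0.58 lies outside the range of the 77 other phosphoinositide genes, -0.30 to 0.31.

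Transcripts of the enzymes that Inpp5f is known to be tied to in heart were examined with 12 genes of AKT and GSK3 signalling and class I histone deacetylases. Hdac2, the deacetylase known to repress Inpp5f, was at 49, 48.2 and 46.6 CPM with vehicle and 51.3, 47.9 and 44.4 CPM with tributyrin, a log2 fold change of -0.0012 (standard error 0.0765). Its cofactor gene Hopx was at 0.14 (0.0855). Of the 12 genes, 1 had an unadjusted p under 0.05, beside 4.25% of all genes. This was Hdac8, at 2.45, 2.47 and 2.6 CPM with vehicle and 3.45, 3.14 and 3.61 CPM with tributyrin (log2 fold change 0.44, standard error 0.166). Hdac8 had as few as 55 reads in a library, and the count was 0 in DESeq2, with the atrial score in the model, when libraries were scaled by their totals alone, and without the first or the third tributyrin mouse or the first or the second vehicle mouse.

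The kinases of the pathway were close to 0 in either direction. Akt1 was the lower with tributyrin (-0.07, standard error 0.0637) and Akt2 the higher (0.12, 0.067), and Gsk3a was at 0.07 (0.0665), while Gsk3b, the GSK3 isoform tied to Inpp5f, was at -0.06 (0.0837). Groups did not overlap for 4 of the 12 genes (Akt1, Akt2, Gsk3a and Hdac8), beside 8.94% of all genes, and the median over the 12 was -0.0069. RNA does not report on the phosphorylation state of these proteins, through which the pathway is controlled.

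Hypertrophy markers were set beside Inpp5f because loss or gain of the gene is known to alter them. Of 10 such genes, 9 had a negative log2 fold change (median -0.10, against -0.0013 over all genes tested). An unadjusted p under 0.05 was found for 1, beside 4.25% of all genes. This was Nppb, the natriuretic peptide gene, at 67.5, 88 and 63.4 CPM with vehicle and 16.4, 44.2 and 49 CPM with tributyrin (log2 fold change -1.004, standard error 0.309). Its groups did not overlap, beside 8.94% of all genes tested. The other natriuretic peptide gene, Nppa, had the -0.53 given above with the atrial genes. Acta1, the skeletal actin gene, had -1.20 (0.55) and ranged from 94.2 to 475 CPM with tributyrin and from 358 to 1165 CPM with vehicle. The second vehicle mouse was the highest of the 6 in Inpp5f, Nppb and Acta1. By contrast Myh7 was at -0.36 (0.227), and its highest value, 204 CPM, was in the third vehicle mouse, which had the lowest Inpp5f of that group. The rest of the list, Rcan1, Gata4, Mef2c, Nfatc3, Fhl1 and Xirp2, lay between -0.10 and 0.02, each with a 95% interval that includes 0.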

How the data were processed

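Gene counts of 6 heart ventricle libraries were used as the authors deposited them, unnormalised whole reads per gene. By the submitters' notes and the study's methods, 50-base reads were trimmed with cutadapt 1.13, aligned to mm10 with STAR and counted with HTSeq 0.6.1p1. Neither the annotation release nor the strand setting of the counting was found in the labels or methods. GENCODE M21 (GRCm38) named 54165 of 54232 identifiers, and 0 lines named no gene.

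Libraries were assigned by title and compared with edgeR 4.0.16 (R 4.3.3): TMM scaling, filterByExpr (minimum count 10, total 15), quasi-likelihood test and Benjamini-Hochberg adjustment over 14133 genes, with an FDR of 10%. The 3 libraries a group are numbered in the labels, and p-values measure only the spread between them. With 3 against 3 an exact permutation test cannot go below 0.1. Alternatives used DESeq2 1.42.0, limma 3.58.1 (voom), other scaling and filters, a replicate block, each library left out and, added later, an atrial score. The scripts were tested on simulated data.

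The members, gene lists and tests were chosen with earlier results of these data known. Named genes are the 8 members, pathway genes with an unadjusted p under 0.05 and the most abundant gene of each pathway list. They also include 3 neighbours on each side of Inpp5f, the 5 genes most alike, genes that overlap Inpp5f, Inpp5e or Sacm1l, and genes of the AKT and deacetylase list. Genes whose groups did not overlap, the range ends of the pathway list, Synj1 and the partners of Fig4 were named after their values were seen. So were the hypertrophy, atrial, ventricular, fibroblast and mural genes. Coding bases came from the M21 transcripts. Counting SDs cover counting error only.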

Additional observations from a re-analysis of the deposited data

How the results depend on the processing

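The count of genes at an FDR of 10% depended on the fit: 0 in the main edgeR fit, 167 with no filter on low counts, 11 in DESeq2, 2 with the replicate block and 0 to 3 with 1 mouse left out. The log2 fold change of Inpp5f was -0.66 (without the third tributyrin mouse) to -0.47 (without the second vehicle mouse) over the 15 alternatives and never changed sign. Relative to its relatives it was -0.63 to -0.45 with 1 mouse left out. The sign changed in 5 alternatives for Inpp5d, 2 for Inpp5a, 1 each for Inpp5k, Fig4 and Sacm1l, and 0 for Inpp5b and Inpp5e. Members with an unadjusted p under 0.05 numbered 1 to 3 with 1 mouse left out, 3 (Inpp5f, Inpp5b and Fig4) without the second tributyrin mouse. In that fit 1360 of 14225 genes were under the same threshold, against 600 of 14133 with all mice. Members whose groups did not overlap numbered 2 (Inpp5f and Inpp5a) by library totals alone and 1 to 3 with 1 mouse left out. With fewer mice groups separate more easily, and the share of all genes that did so was not counted. Of the pathway genes, 4 of 77 by library totals, 3 of 80 with no filter, 3 of 77 with the replicate block and 0 to 3 with 1 mouse left out had an unadjusted p under 0.05. In the AKT and deacetylase list that number was 0 by library totals, in DESeq2 and with the atrial score, and 0 to 2 with 1 mouse left out. Over all genes it was 798 of 14133 by library totals, 1178 of 25581 with no filter and 731 of 14133 with the block. DESeq2 gave 460 of 25581 and the atrial score 440 of 14133. With 1 mouse left out it ran from 389 of 14496 to 1360 of 14225. The causes were not tested. The labels number the mice but do not say whether the numbers pair them. Deviations from the group means correlated at 0.214, 0.0375 and 0.0147 for same-numbered mice and at -0.193 to 0.152 for the other pairs, which cannot settle it. With the block Inpp5f was at -0.58 (adjusted p = 0.3848 in edgeR). With 150 to 431 reads per library, Inpp5b, Inpp5d and Inpp5f are the members most limited by depth.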
